A study of Glycine max with 2 samples.

Results

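The basic leucine zipper (bZIP) transcription factors of soybean were examined in salt-treated and mock-treated seedlings. Members were the genes whose symbol in the annotation of the array platform was bZIP followed by a number, taken from soybean probe sets assigned to a single gene. The rule gave 58 genes with 89 probe sets, out of 6031 soybean genes with such probe sets. The salinity group was Williams 82 seedlings, 14 days old, given 150 mM NaCl, and the mock group was seedlings of the same cultivar and age given water. RNA from 1, 3, 6, 12 and 24 h was combined into a single pool per group, and each pool was measured on 1 Affymetrix Soybean Genome Array. A 0 h sampling appears in the series design only, and whether the pools hold it is not stated. The organs sampled are not named in the labels, and a pool gives neither a time course nor a spread between plants.

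A bZIP protein binds DNA through a basic region and pairs with a second bZIP protein through a heptad repeat of leucines. Most plant bZIP factors recognise sites built around an ACGT core. In Arabidopsis they include the AREB/ABF factors of abscisic acid signalling, the light-signalling factor HY5, the TGA factors of salicylic acid responses and membrane-bound factors of the endoplasmic reticulum stress response.

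Levels are given as the deposited log2 MAS5 signal, a summary over the probes of a probe set. A difference is the log2 ratio of the salinity array over the mock array, so a positive value means a higher signal on the salinity array. A probe set counted as measured when it exceeded a background bound on at least 1 array. This bound, 4.88 for the salinity and 4.94 for the mock array, was the 95th percentile of probe sets for Phytophthora sojae and soybean cyst nematode. The brightest probe set stood for a gene, and its other probe sets served as repeat measurements on the same arrays. Having 1 array per group, the comparison allowed no test, and differences of 2-fold or more were counted.

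Of the 58 bZIP genes, 56 were measured. BZIP82 and BZIP94 stayed under the bound on both arrays, and BZIP9 exceeded it on the mock array alone. The other 55 gave a signal on both arrays. Over all 58 genes, including the 2 under the bound, the brightest probe sets had a median of 9.53 in the salinity pool, against 9.31 in the mock pool. For the 56 measured genes the median was 9.57 in the salinity pool, against 9.44 in the mock pool. The brightest probe sets reached up to 13.01 in the salinity pool, against 13.72 in the mock pool. A signal also depends on the probes, so levels of different genes are not compared.

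At the 2-fold rule, 6 bZIP genes were higher on the salinity array and 1 was lower. That is 10.7% of the measured members higher, where 5.02% of all 5892 measured genes were, and 1.79% lower, where 5.67% of all genes were. Each member weighs 1.79 percentage points, so the shares rest on few genes. At least 1.5-fold, 10 members were higher (17.9%, against 11.4% of all genes) and 3 were lower (5.36%, against 14.7%). A log2 ratio above 0 was found for 36 of 56 members, or 64.3%, against 49.8% of all genes. The median log2 ratio was 0.21 for bZIP genes and -0.0033 for all genes, and the middle 50% of the members ran from -0.13 to 0.52. Most members therefore differed little between the arrays, with 37 of the 56 within 0.5 of 0 on the log2 scale. This is not particular to bZIP genes, since the middle 50% of all genes ran from -0.32 to 0.25.

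**Figure D1:**
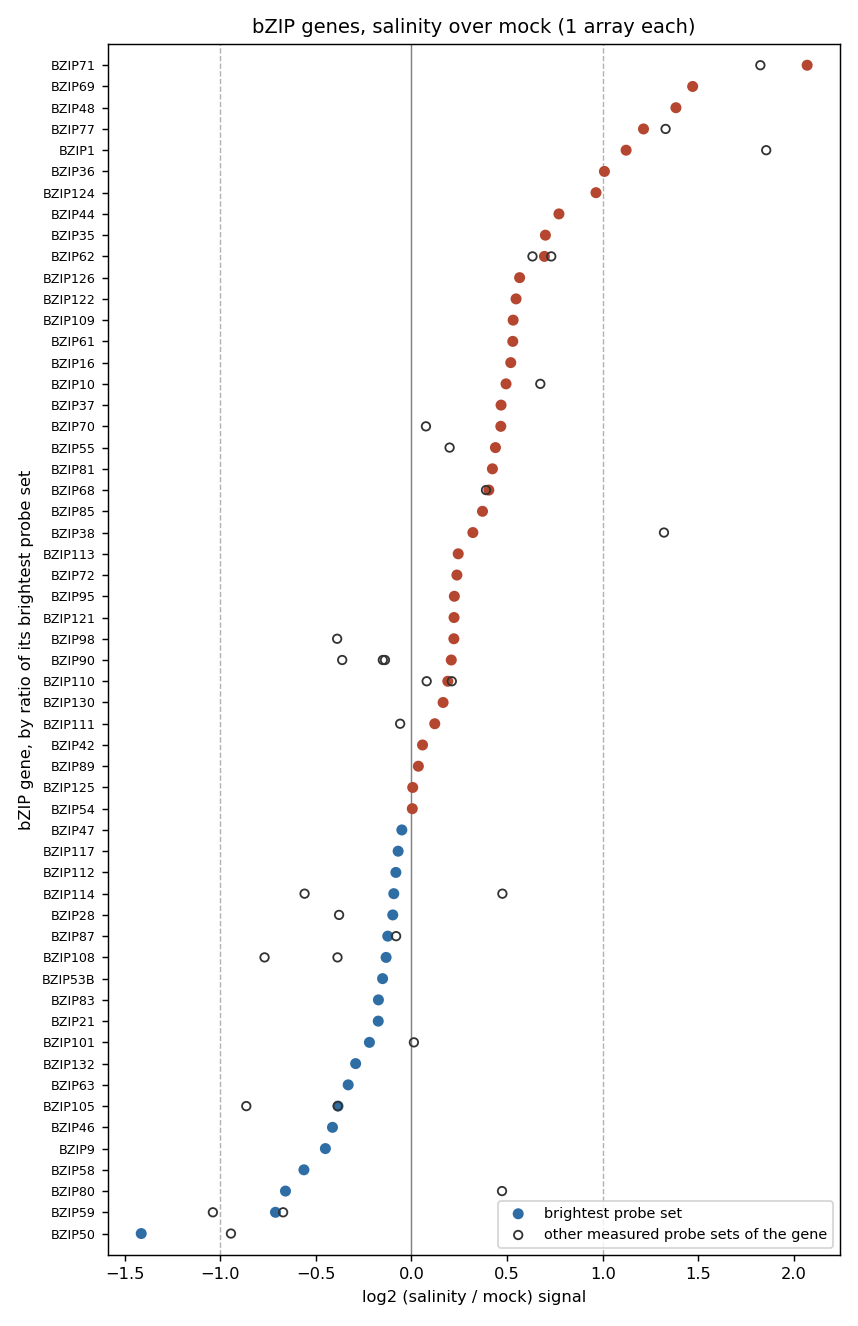
Log2 ratio of salinity over mock signal (x axis) for the 56 measured bZIP genes (y axis), 1 array per group. Filled points are the brightest probe set of a gene (red above 0, blue below 0), open points its other measured probe sets, and dashed lines mark 2-fold; 6 genes lie beyond it on the right and BZIP50 alone on the left.

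The largest difference belonged to BZIP71. Its brightest probe set had a log2 signal of 11.68 in the salinity pool, against 9.61 in the mock pool, a 4.20-fold higher signal. The suffix of that set marks possible cross-hybridisation with related transcripts. A second set without the mark read 10.04 in the salinity pool, against 8.21 in the mock pool, a log2 ratio of 1.82. The 2 sets therefore gave the same direction and nearly the same size.

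BZIP1, also listed as AREB1, is a factor of the type that binds abscisic acid response elements. Its brightest set read 9.61 in the salinity pool, against 8.48 in the mock pool, 2.18-fold higher. The second set read 9.63 in the salinity pool, against 7.78 in the mock pool, 3.62-fold higher. Both sets were higher, with log2 ratios of 1.12 and 1.86, so the size of the BZIP1 difference varied with the set.

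BZIP77 likewise had 2 sets that pointed the same way. The brightest read 10.94 in the salinity pool, against 9.72 in the mock pool, 2.32-fold higher, and the other gave a log2 ratio of 1.33. BZIP69 and BZIP48 each rested on a single probe set. BZIP69 had a log2 signal of 7.21 in the salinity pool, against 5.74 in the mock pool, 2.77-fold higher. The mock value lay within 1 log2 unit of the bound, where MAS5 signals vary more. BZIP48 read 9.06 in the salinity pool, against 7.68 in the mock pool, 2.61-fold higher.

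BZIP36, listed also as SOYSTF1A, is a soybean relative of the light-signalling factor HY5. It stood just past the 2-fold rule, with a log2 signal of 9.83 in the salinity pool, against 8.82 in the mock pool, 2.01-fold higher. Its close relative STF2 carries a bZIP number only as a synonym and is no member. A probe set assigned to both genes, and marked for cross-hybridisation, read 11.01 in the salinity pool, against 10.08 in the mock pool, 1.92-fold higher. STF2 alone had a log2 ratio of 2.12 by 1 set (8.03 on the salinity array, 5.91 on the mock array) and of 0.45 by another (7.36 and 6.91). The 4 probe sets of the HY5-like pair thus all read higher on the salinity array, from 1.36-fold to 4.34-fold. They are not 4 separate measurements, since 1 is shared by both genes. The set at 4.34-fold had a mock value within 1 log2 unit of the bound. By its brightest set STF2 was 1.36-fold higher, so its size is uncertain.

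By the brightest set, BZIP50 was the only member at least 2-fold lower. That set read 7.45 in the salinity pool, against 8.86 in the mock pool, 2.66-fold lower. The other set, marked for cross-hybridisation, read 7.38 in the salinity pool, against 8.32 in the mock pool, 1.92-fold lower. Both sets were lower, and the marked one fell short of the rule.

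**Figure D2:**
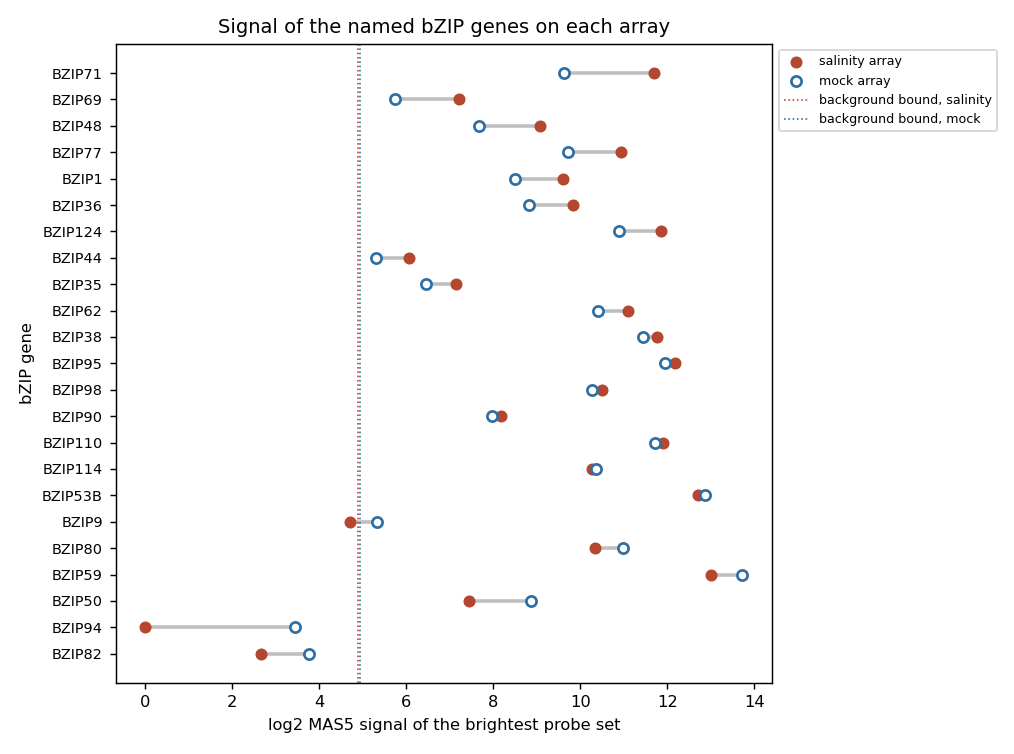
Log2 MAS5 signal (x axis) of the brightest probe set of 23 bZIP genes (y axis) on the salinity array (filled) and the mock array (open), 1 array each, ordered by log2 ratio with the unmeasured BZIP94 and BZIP82 at the bottom. Dotted lines are the background bounds of 4.88 (salinity) and 4.94 (mock); the salinity point lies to the right for BZIP71 and to the left for BZIP50.

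Just outside the rule, 4 members were between 1.5-fold and 2-fold higher and 2 were between 1.5-fold and 2-fold lower. BZIP124 came nearest, with a log2 signal of 11.85 in the salinity pool, against 10.89 in the mock pool, 1.95-fold higher. A probe set shared by BZIP124 and BZIP126 gave a log2 ratio of 0.57, close to that of the BZIP126 set alone (0.57). BZIP35 read 7.15 in the salinity pool, against 6.45 in the mock pool, 1.62-fold higher.

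BZIP44 and BZIP62 have been studied in transgenic Arabidopsis, where they acted as negative regulators of abscisic acid signalling and raised salt tolerance. BZIP62 had 3 probe sets, which gave log2 ratios between 0.63 and 0.73. Its brightest set, marked for cross-hybridisation, read 11.09 in the salinity pool, against 10.39 in the mock pool, 1.62-fold higher. That set and the second brightest BZIP62 set lie in the same transcript cluster, so they may not be separate repeats. BZIP44 read 6.06 in the salinity pool, against 5.29 in the mock pool, 1.71-fold higher, with the mock value near the bound. Both genes were higher on the salinity array by less than 2-fold.

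BZIP110 and BZIP132, also known from work on salt tolerance in transgenic plants, differed less than BZIP44 and BZIP62. BZIP110 read 11.89 in the salinity pool, against 11.70 in the mock pool, and its 3 probe sets gave log2 ratios from 0.08 to 0.21. BZIP132 was slightly lower, at 6.21 in the salinity pool, against 6.50 in the mock pool. Neither gene reached 1.5-fold in these pools.

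The 2 lower members in this range were BZIP59 and BZIP80. The brightest BZIP59 set, marked for cross-hybridisation, read 13.01 in the salinity pool, against 13.72 in the mock pool, 1.64-fold lower. The second set, unmarked, gave 9.83 in the salinity pool, against 10.87 in the mock pool, 2.05-fold lower. The third set, also unmarked, gave a log2 ratio of -0.67, or 1.59-fold lower. All 3 BZIP59 sets were lower. BZIP80 did not behave so: its brightest set read 10.33 in the salinity pool, against 10.99 in the mock pool, a log2 ratio of -0.66, while a dim set read 5.94 in the salinity pool, against 5.47 in the mock pool, a log2 ratio of 0.47.

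The endoplasmic reticulum stress factors form a small group. BZIP37 and BZIP38 are soybean counterparts of the membrane-bound Arabidopsis bZIP17 and bZIP28, and BZIP68 is the counterpart of Arabidopsis bZIP60, whose RNA is spliced during such stress. BZIP37 read 10.72 in the salinity pool, against 10.25 in the mock pool, a log2 ratio of 0.47. BZIP68 gave log2 ratios of 0.40 and 0.39 by its 2 sets. BZIP38 gave different sizes by its 2 sets. Its brightest set, marked for cross-hybridisation, read 11.76 in the salinity pool, against 11.43 in the mock pool, a log2 ratio of 0.32. Its unmarked set read 8.08 in the salinity pool, against 6.76 in the mock pool, 2.50-fold higher. All 5 probe sets of the 3 genes were above 0, and 1 of the 5 passed 2-fold. Over all bZIP genes, 51 of 86 measured probe sets were above 0 and 10 were at least 2-fold higher. The BZIP37 set and the brightest BZIP38 set share a transcript cluster, so they may not be separate.

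For the TGA type, no member carries that name in the gene tables under its own identifier. A set assigned to BZIP76 and SOYSTGA, the second a TGA factor by its symbol and outside the rule, read 12.39 in the salinity pool, against 12.47 in the mock pool. That difference was 1.06-fold. LOC778136, also outside the rule, has GmTGA24 and bZIP95 among its synonyms. It read 10.16 in the salinity pool, against 10.44 in the mock pool, a log2 ratio of -0.28.

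Among the remaining bright members, BZIP95 read 12.17 in the salinity pool, against 11.94 in the mock pool, 1.17-fold higher. BZIP53B read 12.71 in the salinity pool, against 12.86 in the mock pool, a log2 ratio of -0.15. BZIP9, measurable in the mock pool only, was at least 1.37-fold lower on the salinity array. BZIP105 was below 0 by all 3 of its sets, with log2 ratios from -0.86 to -0.38.

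By their brightest sets, the other measured members stayed below 1.5-fold. BZIP126, BZIP122, BZIP109, BZIP61 and BZIP16 came nearest on the higher side, with log2 ratios between 0.52 and 0.57, and BZIP58 on the lower side, at -0.56. BZIP10 (0.49, and at least 0.67 by a set under the bound on the mock array), BZIP70 (0.47), BZIP55 (0.44), BZIP81 (0.42) and BZIP85 (0.37) followed on the higher side. BZIP46 (-0.41) and BZIP63 (-0.33) followed on the lower side. Within 0.25 of 0 lay BZIP113, BZIP72, BZIP121, BZIP130, BZIP42, BZIP89, BZIP125 and BZIP54 above it, and BZIP47, BZIP117, BZIP112, BZIP28, BZIP87, BZIP83, BZIP21 and BZIP101 below it. A log2 ratio within 0.25 of 0 is smaller than the probe-set spread given next.

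Repeat probe sets gave the only measure of error on these arrays. For 22 bZIP genes at least 2 sets were measured, and all sets had the same sign in 16 of them. The 2 brightest sets of each gene were compared by subtracting their log2 ratios, and the SD of that difference over genes, divided by the square root of 2, was 0.35 for bZIP genes and 0.32 over 1681 genes of the array. Such a spread holds probe effects alone, and variation among plants or hybridisations is not in it. The sets had opposite signs and differed by at least 0.5 in 4 genes, BZIP80, BZIP98, BZIP90 and BZIP114. BZIP98 gave 0.22 by its brightest set and -0.39 by the other. BZIP90 gave 0.21 by its brightest set and negative values, down to -0.36, by its other 3. BZIP114 gave -0.09 by its brightest set, with others at -0.56 and 0.48. No direction can be read for these 4 genes.

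Some members share a transcript cluster on the array, so their signals may not be separate. Such pairs were BZIP108 with BZIP109, BZIP61 with BZIP62, BZIP37 with BZIP38 and BZIP110 with BZIP111. The pair BZIP61 (0.53) and BZIP62 (0.70) both had positive log2 ratios by their brightest sets. In the cluster shared by BZIP110 and BZIP111, the BZIP110 set gave 0.08 and the BZIP111 sets 0.12 and -0.06. BZIP109 (0.53) and BZIP108 (-0.13) lay on opposite sides of 0, and the other BZIP108 sets gave -0.77 and -0.39.

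**Figure D3:**
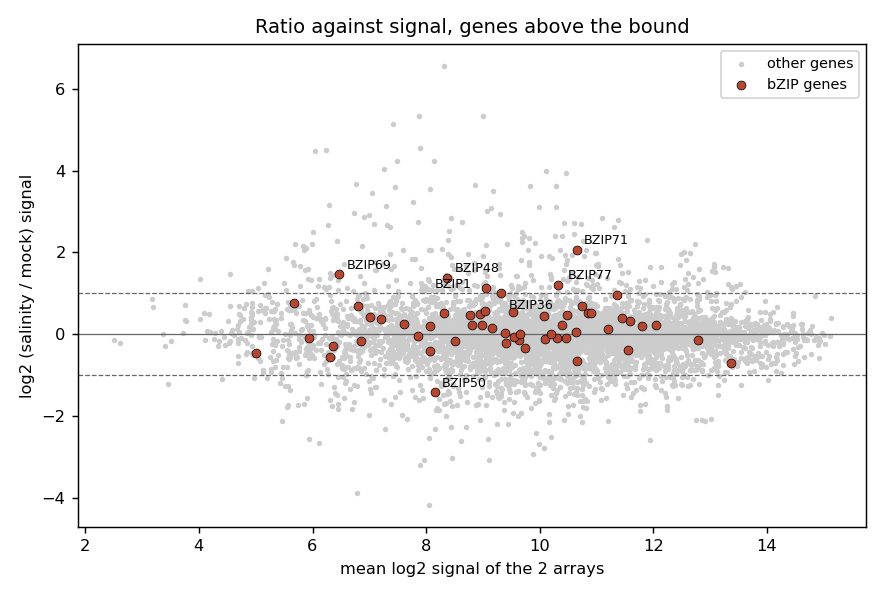
Log2 ratio of salinity over mock signal (y axis) against the mean log2 signal of the 2 arrays (x axis), with 1 point per measured gene; bZIP genes are red, other genes grey, and dashed lines mark 2-fold. The 7 bZIP genes past 2-fold are named, and they have mean signals between 6.47 and 10.65.

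Signal strength was considered because dim probe sets vary more. When all measured genes were split into 3 equal groups by mean signal, 26 bZIP genes fell in the dim, 21 in the middle and 9 in the bright group. The SD of the log2 ratio over all genes was 0.852 in the dim, 0.644 in the middle and 0.536 in the bright group. The bZIP median was 0.24 among dim genes (all genes 0.01), 0.04 among middle genes (all genes -0.01) and 0.19 among bright genes (all genes -0.01). Of the 6 members at least 2-fold higher, 4 were in the dim group, where 7.79% of all genes were that much higher, and 2 in the middle group, where 3.92% were. The positive median was thus smallest at middle signal. No bright member passed 2-fold, in a group where 3.36% of all genes were that much higher and 3.92% lower. With 9 bright members, that absence says little.

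Beside other transcription factor families chosen by symbol, the bZIP median of 0.21 lay between those of NAC genes (0.28, 15 measured) and of WRKY (-0.02, 52 measured) and MYB genes (-0.03, 60 measured). At least 2-fold higher were 6 of 56 bZIP (10.7%), 3 of 15 NAC (20%), 1 of 52 WRKY (1.92%) and 4 of 60 MYB genes (6.67%). At least 2-fold lower were 1 bZIP (1.79%), 0 NAC, 5 WRKY (9.62%) and 3 MYB genes (5%). Over all measured genes, 5.02% were that much higher and 5.67% that much lower, so the MYB shares lay near those of all genes. The SD of the log2 ratios was 0.590 over bZIP genes, 1.11 over NAC, 0.651 over WRKY and 0.768 over MYB genes. These are descriptions of 2 arrays, and the families were not tested against each other.

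**Figure D4:**
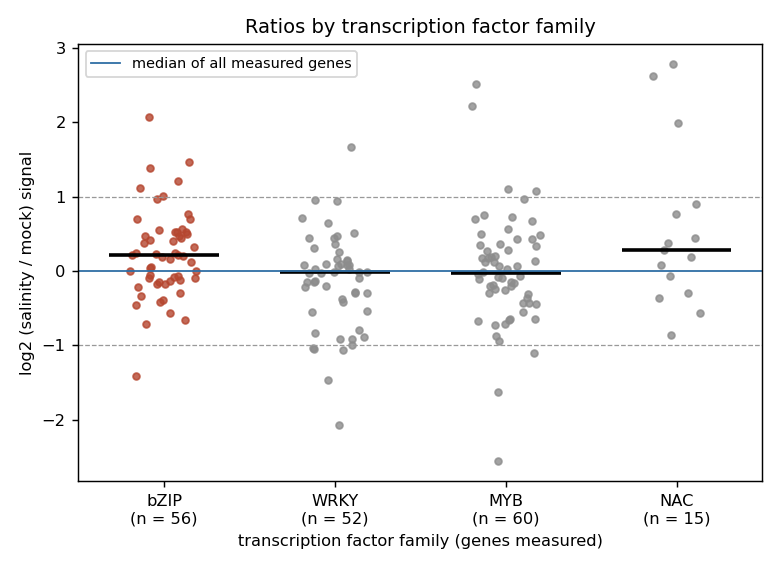
Log2 ratio of salinity over mock signal (y axis) for measured genes of 4 transcription factor families (x axis), 1 point per gene, with spread along the x axis for legibility only. Black bars are family medians (bZIP 0.21, NAC 0.28, WRKY -0.02, MYB -0.03), the blue line the median of all measured genes, and dashed lines 2-fold.

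Genes acting with bZIP factors in the abscisic acid pathway were sought by symbol, and the list found BZIP1 alone. The SPK genes, for protein kinases related to the SnRK2 family that acts upstream of AREB factors, were added after their values were seen. The SPK-4 set, marked for cross-hybridisation, read 9.75 in the salinity pool, against 9.23 in the mock pool, a log2 ratio of 0.53. The unmarked sets of SPK-1, SPK-2 and SPK-3 gave -0.49 to -0.08. Genes for LEA (late embryogenesis abundant) and seed maturation proteins were also listed, many of which carry abscisic acid response elements in other plants. Of 27 measured, 14 were at least 2-fold higher on the salinity array (51.9%, against 5.02% of all genes). None was 2-fold lower, against 5.67% of all genes. Of these 27, 7 exceeded the bound on the salinity array alone, where the ratio is a lower limit and the gene was measured only because it was high there. Among the 20 above it on both arrays, 10 were at least 2-fold higher, with a median log2 ratio of 1.36. Over the 27, the median was 1.59, or 0.81 without probe sets marked for cross-hybridisation. Symbols beginning with RAB also brought RAB7P and RAB2 into that list, at -0.13 and -0.10.

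Reading the members through RefSeq synonyms as well added 9 measured genes. By the brightest set none of them was at least 2-fold higher, and their median was -0.08, while the wider list of 65 measured genes had a median of 0.19. LOC100127361, with the synonym bZIP84, was the 1 gene among them at least 2-fold lower, at 11.40 in the salinity pool, against 12.69 in the mock pool. GBF2, a G-box binding factor, was 1.72-fold higher by its measured set. The suffix of that set, _a_at, stands for alternative transcripts of a single gene, though it was counted with the cross-hybridisation marks here. A further 6 probe sets were assigned to a bZIP gene together with another gene and left out by the rule. Of those not given above, the set of BZIP73A and BZIP73B had a log2 ratio of 0.43, and the 2 sets that BZIP89 shares with SBZ1 gave 0.38 and -0.20.

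Markers of other tissues were checked once for both pools, since fewer cells of a type and less RNA per cell cannot be told apart in whole-tissue RNA. Seed storage genes exceeded the background in 4 of 13 cases in the salinity pool, against 3 in the mock pool. The brightest of these were KTI-3 and KTI-2, trypsin inhibitor genes taken in by their symbols. Genes on the nodule list did so in 5 of 14 cases in each pool. Symbols beginning with LB brought LBD23, a lateral organ boundaries domain gene and no nodule marker, into that list. It was 1 of the 5, at 11.50 in the salinity pool, against 11.93 in the mock pool. The 3 photosynthesis genes found were measured on both arrays, with log2 ratios of -1.07 to -0.24. Their part in the bZIP values was not tested. None of 10 reference genes differed by 1.5-fold, and their median log2 ratio was 0.08.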

How the data were processed

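The deposited table holds log2 signal values, which the authors made with MAS5, per the submitters' processing notes. The sources used here give neither its version nor later steps. Unlogged, the arrays had 2% trimmed means of 498.8 (salinity) and 498.5 (mock), so no further scaling was applied. The table has 61035 probe sets, 37593 of them soybean. Above the background bound lay 87.8% of these in the salinity pool, against 87.5% in the mock pool. Precision is limited by there being 1 array per pool.

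Signals under the bound were raised to it before the log2 ratio was taken. Genes came from the platform's annotation, and 55 of the 58 bZIP genes were found by identifier in the RefSeq gene table (assembly Glycine_max_v4.0, used for names alone). Calculations used Python 3.11.15, numpy 2.4.6, pandas 2.3.3 and statsmodels 0.14.6. The fold rule was also run on simulated data, as a check of the code only. Changes were placed in genes far above the bound, with less noise than between real probe sets. That run therefore says nothing on how reliable the counts are, least of all for dim genes. Members and lists were chosen with earlier results of these data known.

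Genes are named if they differed at least 1.5-fold, exceeded the bound on 1 array or none, were among the 5 brightest, or had probe sets of opposite sign at least 0.5 apart. Members described by role or by a shared transcript cluster, and BZIP105, were chosen after their values were seen. Alternatives covered scaling, bound, floor, filter, probe set choice and fold rule. Close protein pairs and promoter motifs were planned and not analysed here.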

Additional observations from a re-analysis of the deposited data

How the results depend on the processing

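No paired analysis was possible because each group has 1 array. Under loess, quantile normalization or median centring, with the bound at the 90th or the 99th percentile, and with a stricter filter on low signals or none, and with the mean over probe sets, 6 bZIP genes were at least 2-fold higher and 1 was lower. With log2(signal + 16) and no floor, 5 were higher, since BZIP36 came to 0.98. Without probe sets marked for cross-hybridisation, 7 were higher and 2 lower of 54 genes. BZIP38 joined through its unmarked set, and BZIP59 through the brighter of its unmarked sets. The marks counted in that setting included _a_at, so BZIP109 was dropped, since its only set carries that suffix. That set lies in the transcript cluster shared with BZIP108, and whether it reads a single gene was not tested. With the second brightest set, available for 22 genes, 4 were higher and 1 lower, 12 lay above 0 and the median was 0.04. The median over the other settings at 2-fold lay between 0.16 (mean over probe sets) and 0.22. A 1.5-fold rule gave 10 higher and 3 lower. Members by RefSeq synonyms too, a choice made after seeing the data, gave 6 higher, 2 lower and a median of 0.19. BZIP71 kept a log2 ratio of 1.82 to 2.07 across settings, BZIP77 1.20 to 1.33 and BZIP1 1.09 to 1.86. BZIP50 ranged from -1.41 to -0.94, and BZIP44 fell to 0.36 with the bound at the 99th percentile, since its mock signal lies near background. BZIP80, BZIP98 and BZIP90 changed sign with the probe set used. Where 1 probe set was available, as for 35 genes, no repeat exists, and signals near the bound are the least certain.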
